A study of Capra hircus with 21 samples.

Results

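DDIT3, HSPA5 and DNAJB9, genes of the endoplasmic reticulum stress response, were followed through goat oocytes and preimplantation embryos. They were chosen with earlier results of these data known, and their rows were found by symbol. They are 3 of the 19040 rows of the deposited expression table. Each symbol matched a single protein-coding row. RNA from Capra hircus was sequenced in 21 libraries, 3 at each of 7 stages, with the letters A to C naming the libraries of a stage. The groups were oocytes matured in vivo and, also from in vivo development, embryos of 2, 4, 8 and 16 cells, morulae and blastocysts. The labels name neither breed nor age, nor the number of oocytes or embryos per library, and do not say that the 3 libraries came from different animals. The p-values below thus reflect the spread between libraries, part or all of which could be technical.

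Secretory and membrane proteins fold in the endoplasmic reticulum, and unfolded protein there sets off the unfolded protein response. Its sensors are the kinases IRE1 (gene ERN1) and PERK (gene EIF2AK3) and the membrane-bound transcription factor ATF6, and their signals raise transcription of chaperones, folding enzymes and degradation factors. HSPA5 encodes BiP, the major HSP70 chaperone of the endoplasmic reticulum, which also binds the sensors in unstressed cells. DNAJB9 encodes ERdj4, a J-domain co-chaperone of BiP and, in mammalian cells, a target of the IRE1 and XBP1 branch. DDIT3 encodes CHOP, a C/EBP-family transcription factor that acts downstream of PERK and ATF4 and is best known for promoting cell death under prolonged stress. Early embryos live on RNA stored in the oocyte until their own genome is switched on.

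Values are RPKM, reads scaled by gene length and library size, as the authors deposited them. The length used is the whole span of the gene in the table, introns included. The table places HSPA5 on the minus strand of chromosome 11 at 95624838 to 95628992, DNAJB9 on the plus strand of chromosome 4 at 60614044 to 60615660, and DDIT3 on the plus strand of chromosome 5 at 55285432 to 55286031. The spans are 4154 bases for HSPA5, 1616 bases for DNAJB9 and 599 bases for DDIT3. The genome build is not given in the sources used here. Reads in listed genes numbered between 8.47 M in morula B and 26.7 M in 2-cell C. Reads per library ran from 206 to 11275 for HSPA5, from 173 to 17865 for DNAJB9 and from 220 to 30774 for DDIT3, so the counting error was at most 7.60% of a value. No protein-coding row overlapped any of the genes. The nearest one, MARS, started 232 bases from DDIT3 on the opposite strand and had 0.0223 to 0.358 RPKM.

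2 libraries stood apart by RNA typical of oocytes. The summed level of 6 oocyte genes (GDF9, BMP15, ZP4, MOS, BTG4 and OOEP) was 335 RPKM in 16-cell C, against 80.6 and 94.7 RPKM in the other 16-cell libraries. It was 123 RPKM in morula C, against 5.13 and 7.98 RPKM in the other morulae. The RPKM fits were repeated without both libraries, and those values are given for the 3 genes and for those calls and counts of listed genes printed below that changed. The RPM fits left out 1 library at a time only. For morula A the labels report a damaged reverse-read file that was left out of the submission. Markers of cumulus cells (6 of 8 genes in the table), oviduct and uterine epithelium (3 of 5) and blood (5 of 6) summed to at most 1.85 RPKM in every library. The cumulus sum was 1.75 RPKM in morula C, against 0.0282 and 0.0458 RPKM in the other morulae. Stroma and endothelium markers (3 of 5 in the table, mostly DCN) summed to at most 0.192 RPKM in blastocysts and 2.98 to 4.06 RPKM in oocytes. Markers of trophectoderm and the activated embryo, 7 genes with KRT8 and GATA3 among them, summed to 3.72 to 5.23 RPKM in oocytes. Their sum was 61.5 to 160 RPKM in 16-cell embryos, 85.8 to 111 RPKM in morulae and 123 to 174 RPKM in blastocysts. By the calls defined below, 1 of the 5 tested was higher in blastocysts than in morulae and 3 were lower, beside 3.93% and 25.3% of all genes. In blastocysts A and B, 24.4% and 24.9% of the implied reads lay in listed genes, against 32.1 to 42.0% in the other 19 libraries.

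HSPA5, the chaperone, was scarce in oocytes and climbed to its highest level in blastocysts. It had 1.61, 1.07 and 1.39 RPKM in oocytes A, B and C. Mean levels were 1.36 ± 0.274 RPKM in oocytes, 2.20 ± 0.529 in 2-cell and 2.08 ± 0.298 in 4-cell embryos (SD, n = 3 libraries in these and all later means). At the 8-cell stage HSPA5 had 4.84, 9.12 and 4.67 RPKM, a mean of 6.21 ± 2.52. At the 16-cell stage it had 42.0, 25.9 and 19.6 RPKM, a mean of 29.2 ± 11.5. Morulae had 7.97, 24.2 and 30.7 RPKM, a mean of 20.96 ± 11.7. Without libraries C the means were 16.1 ± 11.5 RPKM in morulae and 34.0 ± 11.4 RPKM in 16-cell embryos (SD, n = 2 each). Blastocysts had 55.4, 47.6 and 61.8 RPKM, a mean of 54.9 ± 7.07, and every blastocyst library lay above every other library. In order of mean level the stages ran oocyte, 4-cell, 2-cell, 8-cell, morula, 16-cell and blastocyst. The 4-cell and 2-cell libraries overlapped, as did the 8-cell and morula libraries and the morula and 16-cell libraries. The other neighbours in that order did not overlap. The share of all genes with such gaps in their order of mean levels was not worked out, here or for DNAJB9 and DDIT3 below.

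DNAJB9, the co-chaperone, was low up to the 8-cell stage, very high in 16-cell embryos and morulae, and low again in blastocysts. Oocytes had 4.06, 3.53 and 2.15 RPKM, a mean of 3.25 ± 0.986. The means were 4.78 ± 2.72 RPKM in 2-cell, 4.52 ± 0.246 in 4-cell and 6.47 ± 0.642 in 8-cell embryos, whose libraries had 5.73, 6.82 and 6.86. The 16-cell libraries had 189, 175 and 104 RPKM, a mean of 156 ± 45.6. Morulae had 103, 94.2 and 178 RPKM, a mean of 125 ± 45.9. Without libraries C the means were 98.4 ± 5.98 RPKM in morulae and 182 ± 10.2 RPKM in 16-cell embryos (SD, n = 2 each). No library of these 2 stages came near the highest value of any other stage, 20.8 RPKM in blastocyst C. Blastocysts A, B and C had 11.8, 1.89 and 20.8 RPKM, a mean of 11.5 ± 9.48, the widest relative spread of the gene at any stage. From low to high mean the order was oocyte, 4-cell, 2-cell, 8-cell, blastocyst, morula and 16-cell. Libraries of neighbouring stages overlapped in that order except between oocyte and 4-cell and between blastocyst and morula.

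DDIT3, the transcription factor, had the highest mean RPKM of the 3 genes from the oocyte to the morula and was at its own lowest in blastocysts. It was the highest of the 3 in every library before the blastocyst except 16-cell A, where DNAJB9 had 189 RPKM and DDIT3 had 169 RPKM. The span of DDIT3 in the table is the shortest of the 3, and whether those 599 bases cover the whole gene was not tested. A span that is too short could change the RPKM of DDIT3, and whether it would do so alike at every stage was not tested. By reads, which are not divided by the span but could miss any that fall outside it, DDIT3 ranked between 1119th and 1482nd of all rows in oocytes. Oocytes had 63.7, 94.5 and 67.0 RPKM, a mean of 75.1 ± 16.9. Its means were 68.1 ± 35.1 RPKM in 2-cell, 60.9 ± 10.1 in 4-cell and 62.7 ± 21.8 in 8-cell embryos, whose libraries had 49.2, 51.1 and 87.9. The 16-cell libraries had 169, 284 and 142 RPKM, a mean of 198 ± 75.2. Morulae A and B had 108 and 196 RPKM, whereas morula C had 825 RPKM, 5.42 times the mean of the other morulae. DDIT3 was 24th of all rows by RPKM and 98th by reads in morula C. The morula mean of 377 ± 391 therefore rests on a single library, and the mean of morulae A and B was 152 ± 62.5 (SD, n = 2). Blastocysts had 11.8, 6.46 and 18.1 RPKM, a mean of 12.1 ± 5.81, below every other library. In order of mean level the stages ran blastocyst, 4-cell, 8-cell, 2-cell, oocyte, 16-cell and morula. Only the blastocyst and 4-cell libraries, and the oocyte and 16-cell libraries, did not overlap with their neighbour.

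**Figure D1:**
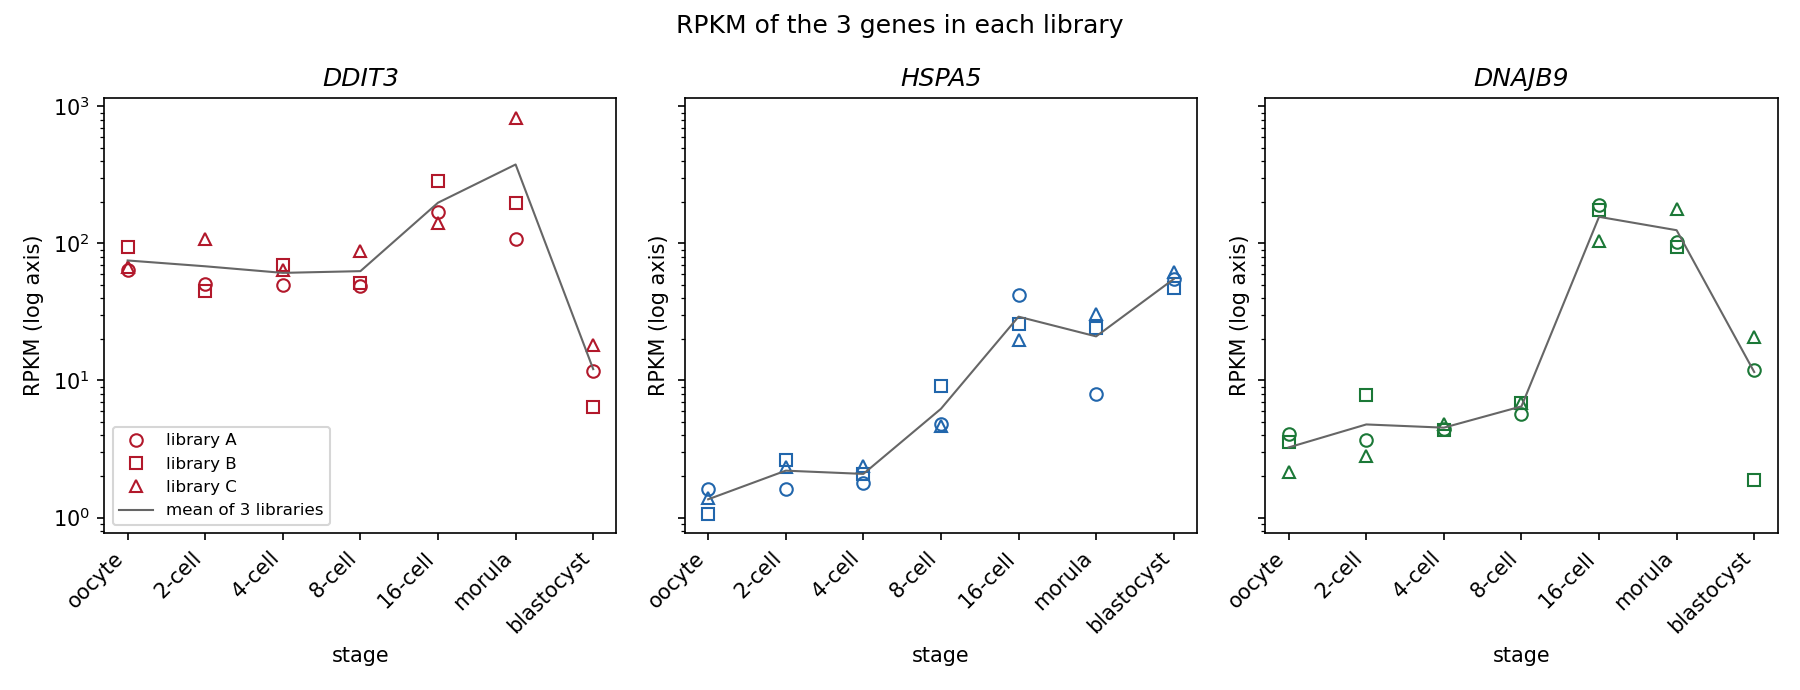
RPKM (log axis) of DDIT3, HSPA5 and DNAJB9 in each of the 21 libraries by stage. Symbols stand for libraries A to C and the line joins the means of 3 libraries. DNAJB9 is above 90 RPKM in every 16-cell and morula library, HSPA5 is highest in the blastocysts, and DDIT3 of morula C stands at 825 RPKM.

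The level of the genes relative to each other changed over development. In oocytes DDIT3 was the most abundant per unit of gene span in every library and HSPA5 the least. In blastocysts HSPA5 was the most abundant in every library. These are comparisons of RPKM, so they depend on the spans in the table, that of DDIT3 included.

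Stages were compared with limma on log2(RPKM + 1) over the 4253 genes that reached 1 RPKM in 3 libraries, which included all 3 genes. A call needed an adjusted p (Benjamini-Hochberg over all genes tested) below 0.05 together with a log2 fold change of 1 or more in size. Fold changes are later stage over earlier stage and, because 1 is added to each value, understate the change of low levels. RPKM gives the share of a library, so fewer cells of a type and less RNA per cell cannot be told apart. In the limma F test over the 6 consecutive steps the adjusted p was 5.85e-09 for HSPA5, 1.78e-08 for DNAJB9 and 1.86e-05 for DDIT3. Of all genes tested, 93.8% passed that test.

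Between the oocyte and the 8-cell stage none of the 3 genes was called in any step. In 2-cell embryos against oocytes, 0 of the 3 were called and 4.77% of all genes tested were. In 4-cell against 2-cell embryos the call rate over all genes was 0%, with 161 of 4253 genes at an unadjusted p below 0.05 and 0 or 1 gene called under the other settings tried. In 8-cell against 4-cell embryos 0.682% of genes were called. HSPA5 had the largest log2 fold change of the 3 in that step, 1.18 (SE 0.39), with an adjusted p of 0.159 by limma. Its 8-cell libraries (4.67 to 9.12 RPKM) all lay above its 4-cell libraries (1.78 to 2.37 RPKM), a separation upward that 18.9% of all genes showed. DNAJB9 also had 8-cell libraries (5.73 to 6.86 RPKM) above its 4-cell libraries (4.33 to 4.80 RPKM), with a log2 fold change of 0.43 and an adjusted p of 0.81. For DDIT3 the value was 0.00 (95% interval -1.19 to 1.20).

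The step to the 16-cell stage was the only consecutive one in which all 3 genes were called in the same direction, each higher than at the 8-cell stage. Over all genes tested, 19.4% were called higher and 15.9% lower. DNAJB9 changed most, to a mean 24.2 times that of 8-cell embryos, with a log2 fold change of 4.35 (SE 0.53, adjusted p = 2.3e-06 by limma). That was the 29th largest rise among the 4253 genes. HSPA5 was 4.70 times higher, with a log2 fold change of 2.05 (SE 0.39, adjusted p = 0.000243). DDIT3 was 3.16 times higher, with a log2 fold change of 1.63 (SE 0.57, adjusted p = 0.0203). For each gene, all 3 of the 16-cell libraries lay above all 3 of the 8-cell libraries, as they did for 31.5% of all genes tested.

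The calls of HSPA5 and DNAJB9 at the 16-cell stage held in every setting tried. The call of DDIT3 did not. With 16-cell B left out its adjusted p was 0.0917, with 8-cell A left out 0.0679 and with 8-cell B left out 0.0630, and its log2 fold change was 0.92 (adjusted p = 0.171) after quantile normalization. 16-cell C was the lowest 16-cell library for each of the 3 genes. Without 16-cell C and morula C the log2 fold changes were 4.62 for DNAJB9, 2.29 for HSPA5 and 1.84 for DDIT3, each larger than with them. All were called higher, as were 21.3% of all genes in that fit, with 21.5% called lower.

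From the 16-cell stage to the morula none of the 3 was called, while 16.1% of all genes tested were. Log2 fold changes were -0.33 for DNAJB9 (adjusted p = 0.678 by limma), -0.58 for HSPA5 (adjusted p = 0.299) and 0.45 for DDIT3 (adjusted p = 0.601). Morula C was the highest morula library for all 3 genes and morula A the lowest for HSPA5 and DDIT3. Without 16-cell C and morula C, HSPA5 was called lower in morulae, with a log2 fold change of -1.18 (adjusted p = 0.0351), as were 9.64% of all genes in that fit. DDIT3 changed direction without them, to -0.58 (adjusted p = 0.414). Both C libraries had the highest summed level of the oocyte genes at their stage. For the 3 genes, 16-cell C was the lowest 16-cell library and morula C the highest morula. The part of oocyte RNA in these values was not tested.

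In blastocysts against morulae the 3 genes separated. DDIT3 and DNAJB9 fell and HSPA5 rose. Over all genes tested, 25.3% were called lower and 3.93% higher. DDIT3 in morulae was 31.1 times its blastocyst level, with a log2 fold change of -4.42 (SE 0.57, adjusted p = 8.06e-06 by limma), the 14th largest fall of 4253. That ratio and rank include morula C, at 825 RPKM, beside a mean of 152 RPKM in morulae A and B. Without morula C the log2 fold change of DDIT3 was -3.59, and without morula A it was -5.05, and both were called. DNAJB9 in morulae was 10.8 times its blastocyst level, with a log2 fold change of -3.70 (SE 0.53, adjusted p = 2.1e-05). That value was -2.85 without blastocyst B and -4.31 without blastocyst C, both called. Without 16-cell C and morula C it was -3.41 (adjusted p = 0.000257), and in that fit 3.53% of all genes were called higher and 23.7% lower.

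HSPA5 was 2.62 times higher in blastocysts than in morulae, with a log2 fold change of 1.53 (SE 0.39, adjusted p = 0.00388 by limma). Without morula A, the lowest morula for HSPA5, the log2 fold change was 0.98 (adjusted p = 0.0289), just under the fold required for a call. Without 16-cell C and morula C it was 1.89 (adjusted p = 0.000902). The median gene moved by -0.48 in this step on the deposited scale and by -0.16 after quantile normalization, and all 3 calls held under both scalings. As a share of the reads in listed genes, which leaves out the low gene share of blastocysts A and B, the groups did not overlap either. How many of all genes separated so on this scale was not worked out. DDIT3 took 0.00289%, 0.00155% and 0.00267% of these reads in blastocysts A, B and C, against 0.0184%, 0.0333% and 0.139% in morulae. DNAJB9 took 0.00783%, 0.00122% and 0.00830% in blastocysts, against 0.0471%, 0.0431% and 0.0806% in morulae. HSPA5 took 0.0943%, 0.0794% and 0.0633% in blastocysts, against 0.00939%, 0.0285% and 0.0358% in morulae.

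Across the whole course, from oocyte to blastocyst, 19.8% of genes tested were called higher and 28.5% lower. HSPA5 was 40.5 times higher in blastocysts, with a log2 fold change of 4.57 (SE 0.39, adjusted p = 9.2e-09 by limma). DDIT3 was lower, with oocytes at 6.21 times the blastocyst level and a log2 fold change of -2.62 (SE 0.57, adjusted p = 0.000482). DNAJB9 had a log2 fold change of 1.16 with an adjusted p of 0.0558 and was not called. Blastocyst B, at 1.89 RPKM, lay below all oocyte libraries, while blastocysts A and C lay above them. Without blastocyst B the value was 2.01 (adjusted p = 0.000252).

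**Figure D2:**
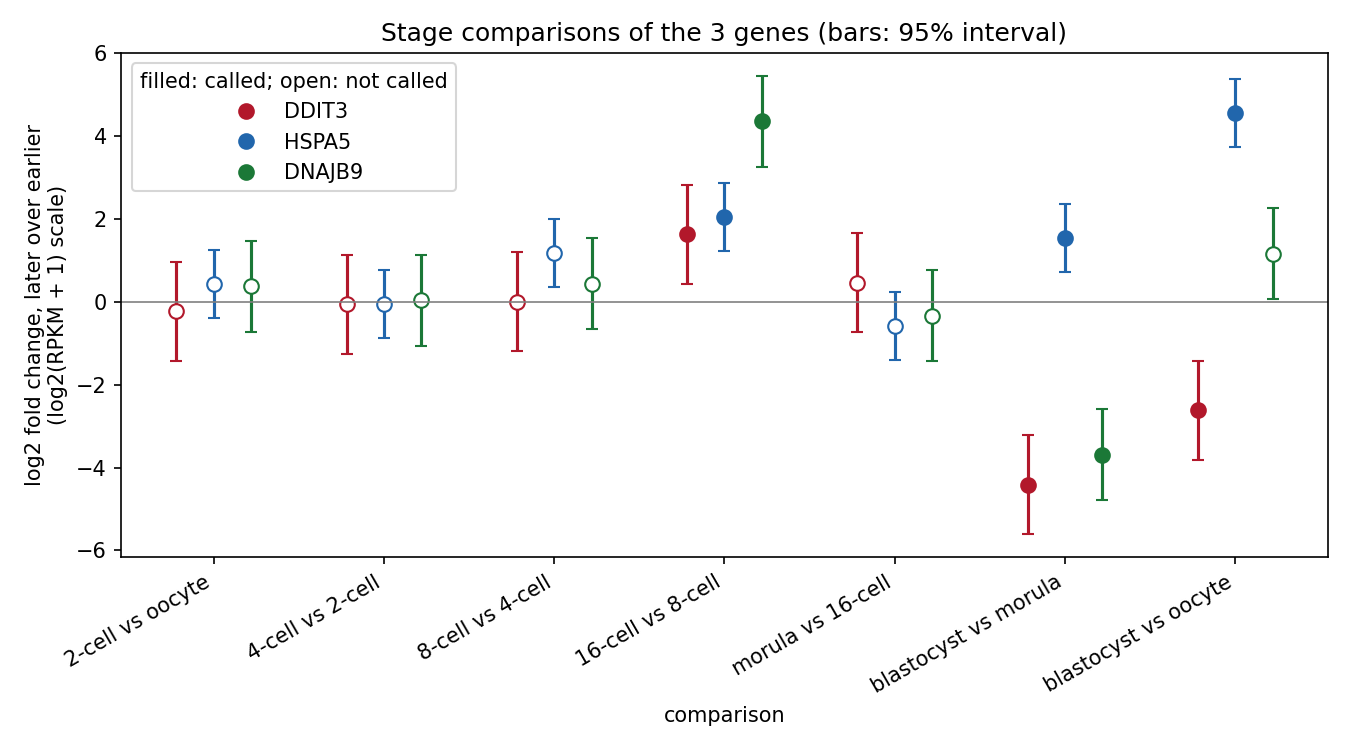
Log2 fold changes (later over earlier stage, on the log2(RPKM + 1) scale) of the 3 genes in 7 comparisons, with 95% intervals from limma. Filled points were called and open points were not. All 3 are called higher in 16-cell against 8-cell embryos, and the blastocyst splits them, with HSPA5 at 1.53, DNAJB9 at -3.70 and DDIT3 at -4.42 against morulae.

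Whether the genes differed from each other was tested on the difference of their log2(RPKM + 1) within a library. The 18 tests were exact two-sided permutations of 3 libraries against 3, which cannot give a p below 0.1. The smallest adjusted p (Benjamini-Hochberg over these tests) was 0.3. DNAJB9 minus HSPA5 was 2.40 ± 0.284 in 16-cell embryos and 0.101 ± 0.430 in 8-cell embryos (SD, n = 3 libraries each, exact p = 0.1, adjusted p = 0.3). The same difference was -2.58 ± 1.33 in blastocysts and 2.65 ± 0.817 in morulae, a change of -5.22 (exact p = 0.1, adjusted p = 0.3). DNAJB9 minus DDIT3 was -0.32 ± 0.439 in 16-cell and -3.05 ± 0.403 in 8-cell embryos. HSPA5 minus DDIT3 was 2.19 ± 0.495 in blastocysts and -3.76 ± 0.876 in morulae. In 8-cell against 4-cell embryos DNAJB9 minus HSPA5 changed by -0.75 and HSPA5 minus DDIT3 by 1.17. The libraries of the stages compared did not overlap in these 6 of the 18 differences, and each had the smallest p the design allows. Such separation was common, as 35.9% of all pairs of tested genes showed it in 8-cell against 4-cell embryos, 65.3% in 16-cell against 8-cell embryos and 39.6% in blastocysts against morulae. Without 16-cell C and morula C, the 4 of these differences at the later steps still did not overlap, and DNAJB9 minus HSPA5 changed by -5.30 in blastocysts against morulae. Each of the 4 then set 2 libraries against 3, which separate more easily, and the share of all pairs was not worked out for that. DNAJB9 minus DDIT3 differed by 0.72 between blastocysts and morulae (exact p = 0.5), or by 0.18 without 16-cell C and morula C, and libraries overlapped.

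**Figure D3:**
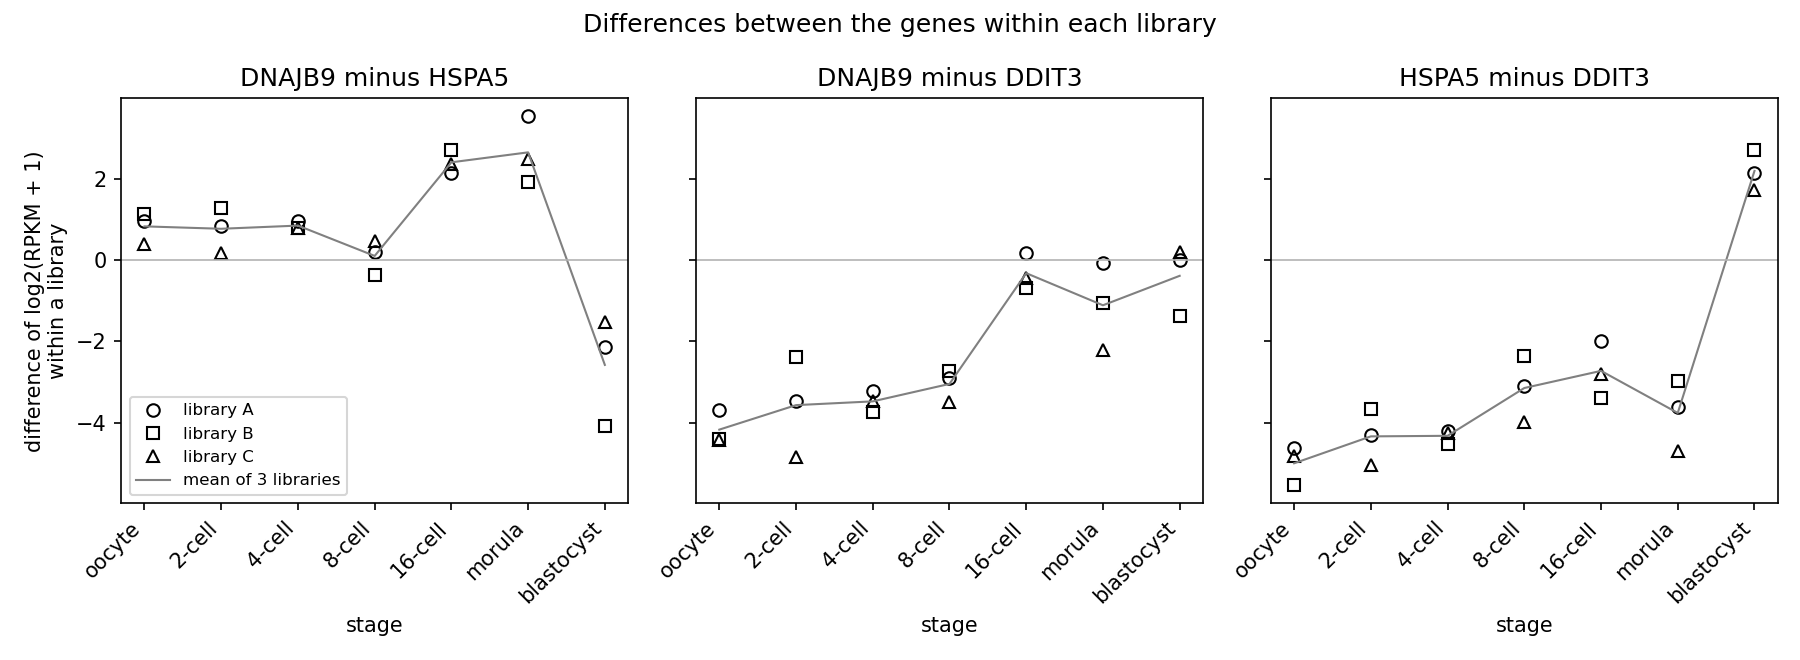
Difference in log2(RPKM + 1) between pairs of the 3 genes within each library, by stage. Symbols are libraries A to C and lines join means of 3. DNAJB9 minus HSPA5 is above 1.9 in all 16-cell and morula libraries and below -1.5 in all blastocysts, and HSPA5 minus DDIT3 is above 0 in the blastocysts alone.

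The sensors of the response were low on the RPKM scale and none of 8 listed sensor and protease genes reached the level for testing. They were therefore examined as RPM, reads scaled by library size with no division by gene span, over 10384 genes, of which 15.4% were called higher and 30.7% lower in 16-cell against 8-cell embryos. Of the 8 listed sensors and proteases, 5 were tested there, and 2 were called higher and 2 lower. EIF2AK3 (PERK) was higher, at 3.75 ± 3.20 RPM in 16-cell embryos and 0.650 ± 0.175 in 8-cell embryos (log2 fold change 1.33, adjusted p = 0.00291 by limma). The call was lost without 16-cell B. ATF6 was lower, at 11.2 ± 6.33 RPM in 16-cell embryos and 47.5 ± 14.2 in 8-cell embryos (log2 fold change -2.06, adjusted p = 0.00624). Also called were MBTPS1, the site-1 protease that cleaves ATF6, which was higher (1.25, adjusted p = 0.0020), and CREB3L2, an ATF6 relative, which was lower (-1.33, adjusted p = 0.00167). Both were picked for naming after their values were seen. ERN1 (IRE1) had at most 62 reads in any library and was not tested. XBP1, PPP1R15A and DNAJB11 were not analysed here.

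Of the transcription factors of the response, 3 besides DDIT3 were tested on RPKM. CEBPG, a C/EBP-family factor that forms heterodimers with its relatives, had a course like that of DNAJB9. It had 23.2, 45.7 and 23.0 RPKM in 16-cell embryos, against 5.25, 5.10 and 4.25 RPKM in 8-cell embryos (log2 fold change 2.36, adjusted p = 1.97e-05 by limma). It fell to 2.61, 1.57 and 4.99 RPKM in blastocysts, against 15.4, 30.6 and 17.5 RPKM in morulae (log2 fold change -2.48, adjusted p = 1.97e-05). ATF4, which activates DDIT3 when PERK signals, was called at another step. It had 38.4, 82.5 and 49.5 RPKM in 2-cell embryos, against 22.3, 14.04 and 18.5 RPKM in oocytes (log2 fold change 1.53, adjusted p = 0.019), a call lost when any of 4 of the 6 libraries was left out. ATF4 was called in no later consecutive step, and blastocysts stayed above oocytes (log2 fold change 1.97, adjusted p = 0.000301). NFE2L2, an oxidative-stress factor that PERK can phosphorylate, was called higher in blastocysts than in morulae (1.07, adjusted p = 0.0166), and not without morula C or without blastocyst C. Without 16-cell C and morula C it had 0.69 (adjusted p = 0.0551), while CEBPG kept both calls, at 2.52 and -2.58. ATF3, a stress-induced factor with at most 169 reads in any library, could be tested on the RPM scale alone and was picked for naming after its values were seen. It had 2.79 ± 0.936 RPM in 16-cell embryos and 0.239 ± 0.190 RPM in 8-cell embryos (log2 fold change 1.59, adjusted p = 5.69e-05 by limma). It had 0.10 ± 0.013 RPM in blastocysts and 1.76 ± 1.08 RPM in morulae (-1.24, adjusted p = 0.000657), a call lost without morula C.

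Of the genes of the PERK and ATF4 branch and of eIF2 control, 1 of 5 tested on RPKM was called higher at the 16-cell stage and 0 lower, beside 19.4% and 15.9% of all genes tested. The median log2 fold change was -0.23, against -0.14 over all genes tested. On the RPM scale 2 of 14 were called higher and 4 lower, beside 15.4% and 30.7% of all genes. The gene called higher on RPKM was PPP1R15B, the constitutive subunit of an eIF2α phosphatase, at 1.15 (adjusted p = 0.00557, or 0.0517 without 16-cell B). CHAC1, a glutathione-degrading enzyme and ATF4 target, was highest early. It had 3.68, 8.21 and 5.34 RPKM in 2-cell embryos, against 0.972, 0.937 and 0.431 RPKM in oocytes (log2 fold change 1.88, adjusted p = 6.86e-05 by limma). By the morula it was at 0.0902 ± 0.0585 RPKM. Without 16-cell C and morula C it was called lower in 16-cell than in 8-cell embryos (-1.09, adjusted p = 0.000977). In that fit 1 of the 5 was called higher and 1 lower, beside 21.3% and 21.5% of all genes. EIF2S1, which encodes eIF2α itself, was called higher in morulae than in 16-cell embryos, with a log2 fold change of 2.33 (adjusted p = 0.00225), or 2.44 (adjusted p = 0.00595) without 16-cell C and morula C.

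Of 10 other chaperones and folding enzymes of the endoplasmic reticulum tested on RPKM, 0 were called higher at the 16-cell stage and 2 lower, beside 19.4% and 15.9% of all genes. The median log2 fold change was -0.13, against -0.14 over all genes. On the RPM scale, where 23 were tested, 3 were called higher and 11 lower, beside 15.4% and 30.7% of all genes. Those higher on that scale were CALR, a lectin chaperone (1.06, adjusted p = 0.0146 by limma, lost without 8-cell C or 16-cell A), DNAJC10, a J-domain disulfide reductase (1.36, adjusted p = 0.00746, lost without 16-cell B), and PPIB, a prolyl isomerase (1.43, adjusted p = 0.00114). DNAJC10 and PPIB were picked for naming there after their values were seen. HSP90B1 (GRP94), the HSP90 of this compartment, had 3.69, 5.29 and 7.55 RPKM in 16-cell embryos, against 12.9, 14.2 and 9.61 RPKM in 8-cell embryos. Its log2 fold change was -1.05 (adjusted p = 0.0222 by limma), a call lost when any of 4 of the 6 libraries was left out. PDIA3, a disulfide isomerase, was also lower (-1.14, adjusted p = 0.00223), though not past the fold required without 16-cell A. CALR had 0.738 ± 0.102 RPKM in oocytes, 5.23 ± 1.02 in 16-cell embryos and 10.5 ± 2.29 in blastocysts. No single step was called for it on RPKM, but blastocysts against oocytes were (2.71, adjusted p = 1.41e-08).

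In blastocysts against morulae, 2 of the 10 chaperones were called higher along with HSPA5 and 0 lower, beside 3.93% and 25.3% of all genes, with a median log2 fold change of 0.25, against -0.48 over all genes. On the RPM scale 4 of 23 were called higher and 1 lower, beside 7.74% and 28.1% of all genes. Those higher on RPKM were PPIB (1.45, adjusted p = 1.94e-07 by limma), and SDF2L1, a partner of J-domain co-chaperones (1.40, adjusted p = 4.4e-05). From oocyte to blastocyst 3 of 10 were called higher and 0 lower on RPKM, beside 19.8% and 28.5% of all genes. On the RPM scale these counts were 7 and 4 of 23, beside 20.8% and 36.6%. HERPUD1, a degradation factor of the endoplasmic reticulum membrane, was too low to test on RPKM. On the RPM scale it had 11.6 ± 3.20 in 16-cell and 3.42 ± 1.95 in 8-cell embryos (log2 fold change 1.59, adjusted p = 0.00678, lost without 8-cell C). It had 23.6 ± 14 in blastocysts and 4.94 ± 3.30 in morulae (2.12, adjusted p = 0.000911). DNAJC3 and SEL1L were not called at either step.

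For degradation and import genes the counts at the 16-cell stage stand beside those over all genes, of which 19.4% were called higher and 15.9% lower on RPKM. Of 5 tested degradation genes 0 were called higher and 2 lower, UBXN4 (-2.00, adjusted p = 0.000292 by limma) and ERLEC1 (-1.20, adjusted p = 3.5e-05). In the fit that left out 16-cell C and morula C, 2 were again lower and 1 was higher, VCP, an ATPase that extracts proteins for degradation (1.03, adjusted p = 0.000149). Over all genes, that fit called 21.3% higher and 21.5% lower. VCP was picked for naming after its values were seen. With RPM values, 3 of 17 degradation genes were higher and 4 lower, beside 15.4% and 30.7% of all genes. Of 15 import genes 2 were called higher, SSR1 (1.95, adjusted p = 2.56e-05) and SPCS3 (1.59, adjusted p = 0.000113), and 2 lower. The lower ones were TRAM1 (-1.19, adjusted p = 0.00226) and SPCS1 (-1.26, adjusted p = 0.0369), and the SPCS1 call was lost when any of 4 of the 6 libraries was left out. SSR1 encodes a translocon-associated subunit, SPCS1 and SPCS3 subunits of the signal peptidase, and TRAM1 a protein of the translocating chain. Of 21 import genes tested on the RPM scale, 4 were called higher and 4 lower, beside the same 15.4% and 30.7%.

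Of 9 listed genes linked to CHOP and cell death, 2 could be tested on RPKM, and both were called higher at the 16-cell stage, as were 19.4% of all genes tested. GADD45A, a growth-arrest gene induced by DNA damage, had 13.9, 16.8 and 8.23 RPKM in 16-cell embryos, against 2.89, 5.30 and 4.11 RPKM in 8-cell embryos (log2 fold change 1.43, adjusted p = 0.00163 by limma). It was lower in blastocysts, at 4.50 ± 1.24 RPKM, than in morulae, at 18.4 ± 6.85 RPKM (-1.77, adjusted p = 0.000417). MCL1, an anti-apoptotic BCL2 relative, was at 12.7 ± 5.54 RPKM in 16-cell and 1.95 ± 0.271 RPKM in 8-cell embryos (2.13, adjusted p = 0.00025), and was not called between blastocysts, at 21.4 ± 8.50 RPKM, and morulae, at 15.6 ± 9.16 RPKM. Of 7 cytosolic and mitochondrial chaperones tested, 0 were called at the 16-cell stage, beside 19.4% of all genes higher and 15.9% lower. With RPM values 1 of 8 was called higher and 0 lower, beside 15.4% and 30.7% of all genes. All calls named above for listed genes on RPKM in 16-cell against 8-cell embryos held without 16-cell C and morula C.

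**Figure D4:**
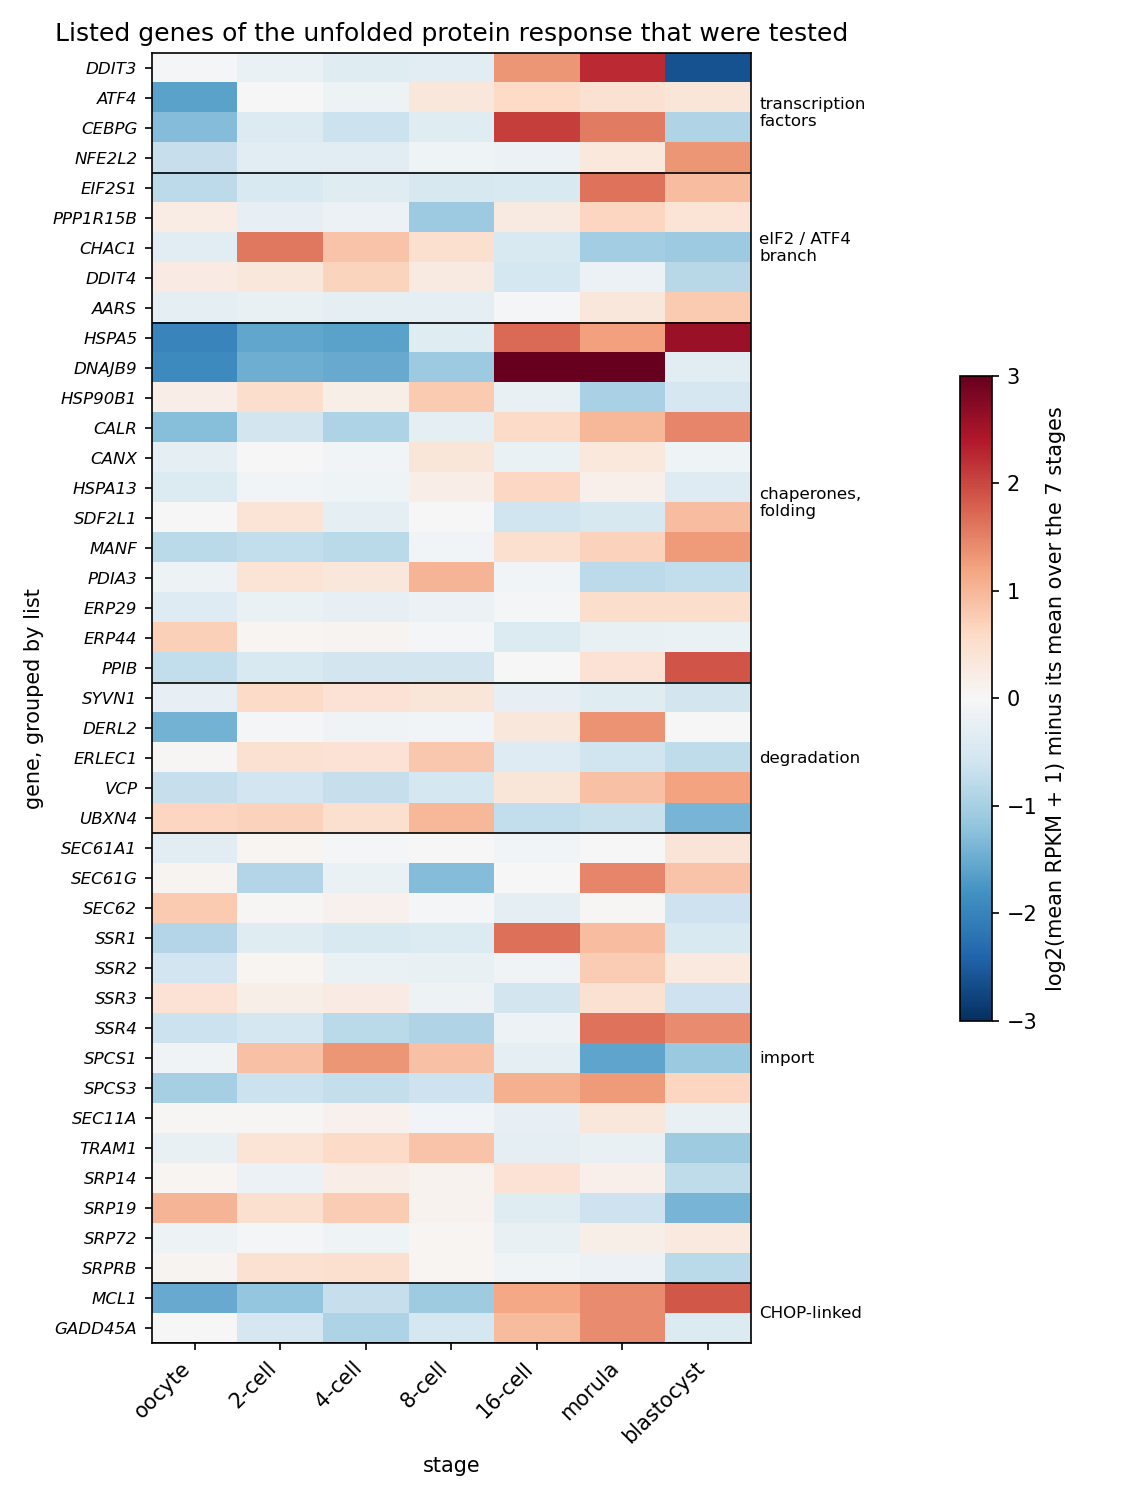
Stage means of the 3 genes and of the listed genes of the response that were tested on RPKM, as log2(mean RPKM + 1) minus the mean of the gene over the 7 stages, grouped by list. Colours stop at 3 and -3, a limit that DNAJB9 passes at the 16-cell stage and comes just short of in morulae. CEBPG, SSR1, GADD45A and MCL1 are above their mean at these 2 stages, while HSP90B1, PDIA3 and UBXN4 are not.

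**Figure D5:**
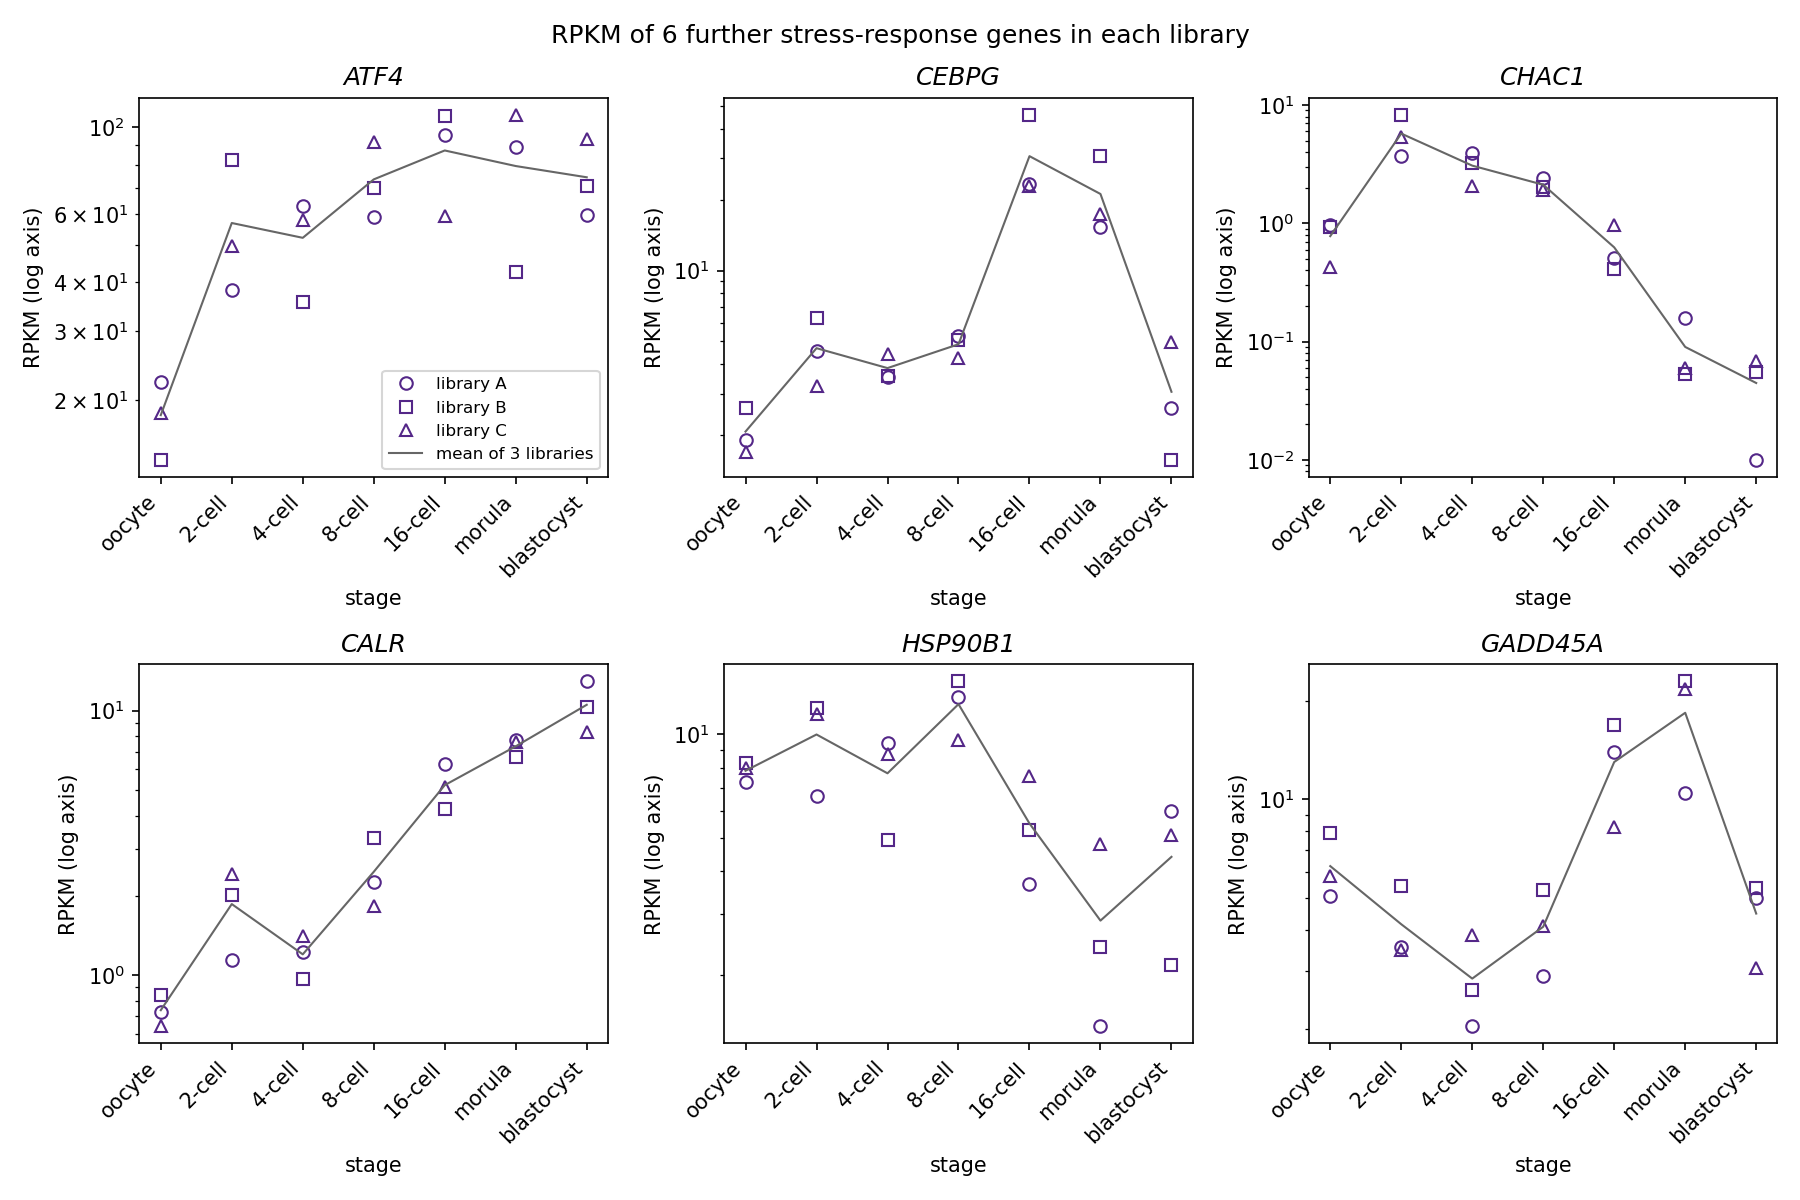
RPKM (log axes, each with its own range) of ATF4, CEBPG, CHAC1, CALR, HSP90B1 and GADD45A in each library. Symbols are libraries A to C and lines join means of 3. CEBPG peaks at the 16-cell stage, CHAC1 at the 2-cell stage, and CALR is highest in blastocysts.

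Other genes had high correlations with the 3 over all libraries, and many of these were lower within the earlier or the later libraries alone. Likeness was the Pearson correlation of log2(RPKM + 1) over the 21 libraries, which share stages and sequencing, and is given as a description. For DNAJB9 the nearest were SAP18 (r = 0.976), TRAPPC4 (0.974), SNAPC5 (0.970), SDF2 (0.969) and EXOSC1 (0.969). SAP18 had r = 0.755 with DNAJB9 over the 12 libraries up to the 8-cell stage and 0.987 over the 9 libraries from the 16-cell stage, whereas EXOSC1 had -0.07 and 0.973. TRAPPC4, SNAPC5 and SDF2 had 0.142, 0.041 and 0.442 up to the 8-cell stage and 0.971, 0.965 and 0.962 after it. For HSPA5 the nearest were FAM166A (0.954), HNRNPK (0.941), CALR (0.936), SLC2A3 (0.936) and HSPH1 (0.931). FAM166A, HNRNPK, SLC2A3 and HSPH1 had 0.923, 0.649, 0.582 and 0.649 with HSPA5 up to the 8-cell stage and 0.644, 0.584, 0.597 and 0.884 after it. CALR, listed here among the folding genes of the endoplasmic reticulum, had r = 0.854 with HSPA5 up to the 8-cell stage and 0.439 after it, and HSPH1 is listed among the cytosolic chaperones. For DDIT3 the nearest were RHEBL1 (0.945), DPAGT1 (0.908), BRDT (0.900), UBE2C (0.899) and SMNDC1 (0.898). RHEBL1 was also highest in morula C among morulae, at 65.7 RPKM, against 19.9 and 28.9 RPKM in morulae A and B. Its correlation with DDIT3 was 0.394 up to the 8-cell stage and 0.966 after it, so the likeness rests on the later libraries.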

How the data were processed

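RNA of 21 libraries was analysed from 1 table. Per the submitters' processing notes, FastQC, STAR 2.5.3a and Partek were used. Build, strandedness and the counting rule were not given in the sources used here. The authors deposited RPKM values. Every library has a lowest value of 0.01. After subtraction of 0.01 and multiplication by the gene span, 94.7 to 96.5% of low values (up to 20 reads) were whole multiples of a step, within 0.05 of it. That step gave reads and depth, 24.0 to 66.6 M implied in total. Reads carry no molecular identifiers, so counting errors cover counting only.

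Samples were grouped by title. limma 3.58.1 in R 4.3.3 (trend and robust) was fitted to log2(RPKM + 1) for the 4253 genes that reached 1 RPKM in 3 libraries or more, in a single model of 7 stages, two-sided. The design had covered other units too. Calls were tested on simulated data. Lists leave out the 3 genes and hold 139 symbols with them, of which 117 were in the table and 50 were tested. The members and lists were chosen with earlier results of these data known.

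The plan was to name the 3 genes, tracked genes of the response and the 5 genes most like each of the 3. It also covered, for each list and comparison, the 2 largest called rises and the 2 largest called falls. Genes called in comparisons not described for their list are not named above. DERL2, SSR3, SSR4, HSPE1, HSPA9 and HSP90AA1 are among them. Alternatives were a pseudocount of 0.1 or 5, a 5 RPKM filter or none, quantile and median-ratio scaling, RPM values without the gene span, a replicate block, and libraries left out. Other code ran under Python 3.11.15 with pandas 2.3.3, numpy 2.4.6 and matplotlib 3.10.9. Sequences of the genes were not used here.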

Additional observations from a re-analysis of the deposited data

How the results depend on the processing

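Limits. Each stage has 3 libraries, so 1 library can decide a value, as morula C does for DDIT3. Gene spans include introns, and strand and shared reads are unknown. The 1 RPKM filter leaves 4253 of 19040 rows, without the sensors. Depth limits the 3 genes little, since each had at least 173 reads in every library.

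All calls of DNAJB9 and HSPA5 in 16-cell against 8-cell embryos, of DNAJB9 and DDIT3 in blastocysts against morulae, and of HSPA5 and DDIT3 in blastocysts against oocytes held under every setting run, as did the F tests. In 16-cell against 8-cell embryos DDIT3 had a log2 fold change of 0.92 (adjusted p = 0.171 by limma) with quantile normalization and 1.34 to 1.90 with 1 library left out. In morulae against 16-cell embryos, without 16-cell C and morula C, DDIT3 had -0.58 and HSPA5 had -1.18 (adjusted p = 0.0351). With 1 library left out DDIT3 had -0.38 to 1.08 there. In blastocysts against morulae HSPA5 had 0.98 to 1.89 with 1 library left out. In blastocysts against oocytes DNAJB9 was called with the 5 RPKM filter (1.16, adjusted p = 0.0469), quantile normalization (1.37, 0.00344) and median-ratio scaling (1.57, 0.00845), and had 0.55 to 2.01 with 1 library left out.

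Uncalled values near 0 changed sign in the steps up to the 8-cell stage. With median-ratio scaling these were HSPA5 (-0.0071) and DNAJB9 (-0.16) in 2-cell embryos against oocytes, DDIT3 (0.0903) and HSPA5 (0.0530) in 4-cell against 2-cell embryos, and DDIT3 (-0.0544) in 8-cell against 4-cell embryos. In 4-cell against 2-cell embryos HSPA5 had 0.0356 with quantile normalization and DNAJB9 -0.0030 with a pseudocount of 5. With 1 library left out, DDIT3 had -0.62 to 0.0074 in 2-cell embryos against oocytes and -0.26 to 0.15 in 8-cell against 4-cell embryos. In 4-cell against 2-cell embryos the ranges were -0.29 to 0.33 for DDIT3, -0.18 to 0.0548 for HSPA5 and -0.22 to 0.39 for DNAJB9. The change of DNAJB9 minus HSPA5 in 2-cell embryos against oocytes was 0.0405 with a pseudocount of 5, and that of HSPA5 minus DDIT3 in 4-cell against 2-cell embryos was -0.0373 with median-ratio scaling. The cause was not tested. Leaving 16-cell C and morula C out of the differences between genes was chosen after seeing the data and reversed none of the 9 from the 16-cell stage on.

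Counts of called genes moved by over 1.5 times. The lowest and highest counts over the settings were 48 and 1501 in 2-cell embryos against oocytes (203 as reported), 12 and 80 in 8-cell against 4-cell (29), 613 and 4789 in 16-cell against 8-cell (1502), and 319 and 1768 in morula against 16-cell (683). They were 513 and 3727 in blastocyst against morula (1244) and 916 and 5957 in blastocyst against oocyte (2053). The highest counts in 5 of these came without the gene span, where 10384 genes were tested. With the library letter as a replicate block, DDIT3 in 16-cell against 8-cell embryos had an adjusted p of 0.0134, and no call of the 3 genes changed. In no comparison did all 3 same-lettered pairs deviate together (correlations from -0.41 to 0.318). Pairs of unlike letters were not worked out, so these values cannot decide whether the letters pair samples. The fit reported above had no block.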
